A study of Mus musculus with 88 samples.

Results

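The 39 genes of the Hox clusters present in the deposited expression table were followed across 26 RNA-seq libraries of mouse embryonic stem cells (ESCs) and embryonic fibroblasts (MEFs). The genes were taken by name, as every row named Hoxa, Hoxb, Hoxc or Hoxd followed by a paralog number, and they are 39 of 21942 rows in the table. The Hoxa cluster gave 11 genes, Hoxb 10, Hoxc 9 and Hoxd 9. Mice of the 129X1/SvJ strain were parents of both crosses used, with MSM/Ms in one (10 libraries, the MSM cross) and C57BL6 in the other (16 libraries, the B6 cross). From the MSM cross came MEFs numbered 2 and 4 at passage 1, 4 ESC lines kept in 2i (15 and 2 with an XX karyotype, 20 and 23 with XY), ESC lines 8 (XX) and 12 (XY) kept in serum and labelled S, and 2 descendants of 2i line 15. One descendant was grown on in serum for 14 more passages (2i-S), and the other is a culture of fibroblasts obtained from that line (2i MEF). From the B6 cross came 2 XX and 2 XY lines for each of the media 2i, t2i, a2i and serum. In 2i the kinases MEK and GSK3 are inhibited, t2i has less of the MEK inhibitor, a2i replaces it by an inhibitor of the kinase Src, and serum medium is used with the cytokine LIF. ESC lines were at passage 3 apart from 2i-S. Line 15 is the source of 3 libraries, so the 2i MEF and 2i-S libraries each stand for 1 line. The title and description of each MEF library give opposite sexes, so MEFs carried no sex. Nothing in the labels ties 2 libraries of a group to separate animals beyond their line number, and p-values measure the spread between these libraries.

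Hox genes encode homeodomain transcription factors that give cells along the head-to-tail axis of the embryo, and along the limbs, their positional identity. In each cluster the paralog number follows the order of the genes on the chromosome: low numbers lie at the end expressed early and anteriorly, and high numbers at the end expressed late and posteriorly. In pluripotent cells the clusters are held nearly silent by Polycomb group proteins, and fibroblasts keep a Hox pattern that reflects the body site they came from. Paralogs 1 to 4 are called anterior here, 5 to 8 central and 9 to 13 posterior.

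In the mm10 build the Hoxa members lay on chromosome 6, and those of the other clusters on chromosome 11 from 96194315 to 96368256 (Hoxb), chromosome 15 from 102921102 to 103036852 (Hoxc) and chromosome 2 from 74668309 to 74765142 (Hoxd). The loci of 11 members overlapped another member: Hoxa3 with Hoxa4, Hoxa5 and Hoxa6, Hoxc5 with Hoxc6, Hoxc8, Hoxc9 and Hoxc10, and Hoxd3 with Hoxd4. The labels do not say how reads in shared stretches were divided, and the split of level among these 11 is uncertain.

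Values are RPKM, reads scaled by gene length and by the reads of the library, so levels can be set side by side between genes. Total reads per library are not stated in the table, and no counting interval is given. Differences are on the log2(RPKM + 1) scale, which understates changes of low genes, with limma's moderated test, and a gene was called at a Benjamini-Hochberg adjusted p under 0.05 over all genes tested. Each cross was fitted as a whole, and a gene was tested when 1 RPKM was reached in at least 2 libraries of that fit, whichever groups they belong to. The 7 pluripotency genes Pou5f1, Nanog, Sox2, Zfp42, Esrrb, Tdgf1 and Dppa5a summed to between 0.483 and 0.727 RPKM in the MEFs, 2.33 RPKM in the 2i MEFs and between 7383 and 15488 RPKM in the ESCs. A list of 16 fibroblast genes gave each library a fibroblast share, the median of their levels as a percentage of the MEF mean. The share was at most 0.118% in the 12 B6-cross libraries in 2i, t2i and a2i, 8.54%, 16.7%, 13.1% and 19.0% in the 4 B6-cross serum libraries (lines 17, 46, 10 and 16), between 0.0720% and 2.39% in the MSM-cross ESC libraries and 195% in the 2i MEFs.

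Fibroblasts held most of the Hox RNA in the series, and the central genes of Hoxc and the posterior gene Hoxb9 stood highest. The summed level of the 39 members was 223 RPKM in MEF 2, 256 RPKM in MEF 4 and 174 RPKM in the 2i MEFs. In the ESC libraries the sum lay between 5.53 RPKM (a2i XY line a1) and 34.2 RPKM (MSM-cross 2i line 15). At least 1 RPKM was reached by 29 members in MEF 2, 23 in MEF 4, 29 in the 2i MEFs and between 1 and 12 in the ESC libraries. Low sums in ESCs can reflect fewer cells that transcribe a gene or less RNA in each cell, and bulk libraries cannot tell these apart.

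**Figure D1:**
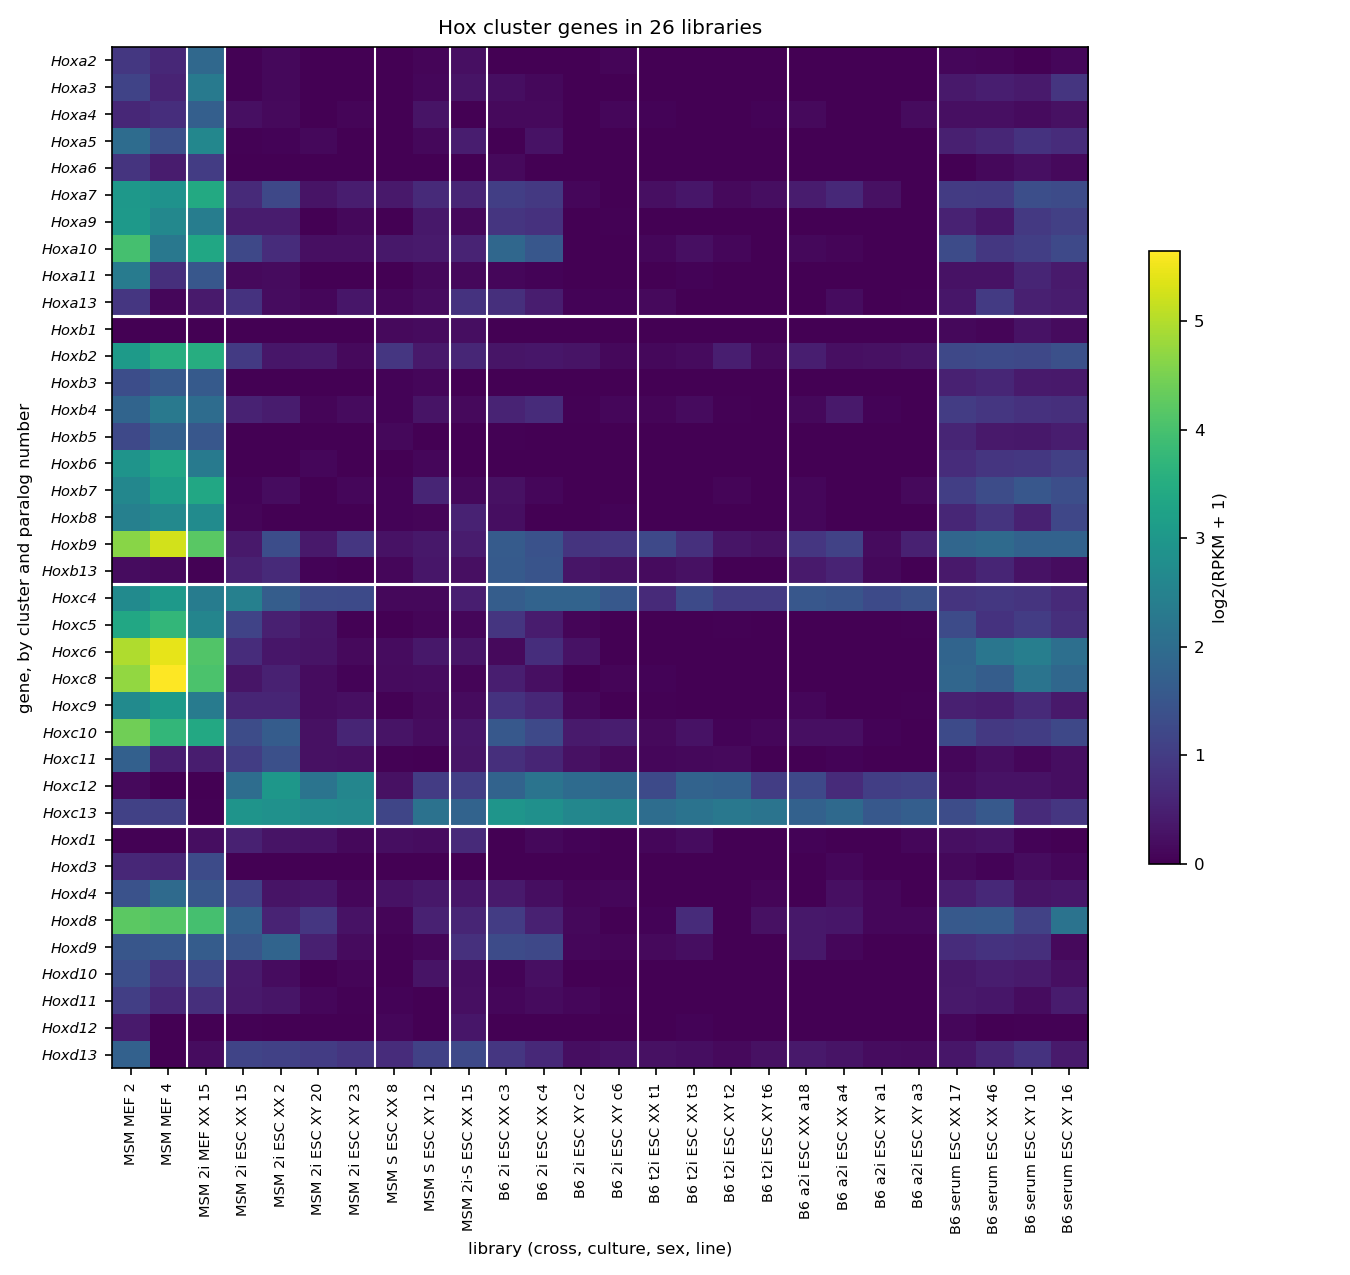
Level of 38 of the Hox cluster genes (rows, by cluster and paralog number) in each of the 26 libraries (columns, by cross and culture), as log2(RPKM + 1). The 3 fibroblast libraries at the left are bright across most rows, while Hoxc12 and Hoxc13 are bright in 2i, t2i and a2i ESCs and darker in fibroblasts.

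Hoxc8, a central paralog used in the thoracic region, read 25.6 and 49.1 RPKM in MEFs 2 and 4 and 15.5 RPKM in the 2i MEFs. Its level in the 4 MSM-cross 2i ESC lines ran from 0.0456 to 0.442 RPKM, far below any fibroblast library. The MEF difference from 2i ESC was 4.92 ± 0.265 (SE) on the log2 scale, with a limma adjusted p of 1.8e-06. Hoxc6, its neighbour, read 30.4 and 42.6 RPKM in MEFs and 16.3 RPKM in 2i MEFs, against 0.109 to 0.6425 RPKM in 2i ESCs (difference 4.83 ± 0.226, adjusted p = 9.6e-07). Hoxb9, a posterior paralog of the trunk, read 24.2 and 37.3 RPKM in MEFs and 17.3 RPKM in 2i MEFs. Its 2i ESC values lay between 0.306 and 1.53 RPKM, and the difference was 4.21 ± 0.317 (adjusted p = 9.9e-06). In all 3 genes the fibroblast and ESC libraries did not overlap. These genes were named for their high level in MEFs, and none would have passed the filter on low values without the fibroblast libraries. A large MEF difference is bound up with that, so these differences and their p-values are descriptions.

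Hoxd8 led the Hoxd cluster, with 17.6, 16.6 and 14.8 RPKM in MEF 2, MEF 4 and 2i MEF, followed by Hoxd4 (1.70, 2.89 and 1.86 RPKM) and Hoxd9 (1.84, 1.94 and 2.14 RPKM). The Hoxd8 and Hoxd4 differences from 2i ESC were called (3.31 ± 0.376 and 1.24 ± 0.281, adjusted p = 9.5e-05 and 0.0042). Both genes passed the filter only with the fibroblast libraries, so these calls too are descriptions. The Hoxd9 difference was not called: XX 2i lines 15 and 2 read 1.79 and 2.55 RPKM, as high as fibroblasts. Hoxa10, Hoxa7 and Hoxa9 led Hoxa, at 14.9 and 3.82, 7.05 and 6.35, and 7.16 and 5.25 RPKM in MEFs 2 and 4. Hoxb2, which acts in the hindbrain, and Hoxb6 followed Hoxb9 in the Hoxb cluster at 7.47 and 10.5, and 6.55 and 9.17 RPKM. Hoxc10, a posterior gene of the lumbar region and hindlimb, read 20.4 and 12.3 RPKM. At the other extreme Hoxb1 was listed at 0 in all 3 fibroblast libraries, and Hoxd1, Hoxb13 and Hoxc12 stayed at or below 0.149 RPKM.

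Of the 39 members 29 passed the filter on low values in the MSM-cross fit, and 21 of the 29 reached 1 RPKM in fewer than 2 of its ESC libraries. Relative to 2i ESC, 23 members (59% of the 39 and 79.3% of the 29) were called higher in MEFs and 2 lower, while over all genes tested 29.9% were called higher and 41.2% lower. A member that passes the filter only through its fibroblast values is bound to differ, so the count is a description. By cluster the higher calls were 6 of 11 in Hoxa, 8 of 10 in Hoxb, 6 of 9 in Hoxc and 3 of 9 in Hoxd. By position they were 6 of 12 anterior, 10 of 11 central and 7 of 16 posterior members. Against 2i ESC the 2i MEFs had 22 members called higher and 2 lower, beside 25.5% and 37.1% of all genes. The 2i MEFs are 1 library, assumed in this test to vary like the other groups. Quantile normalization shifted the median of all genes by 0.14 in that comparison. The pair called lower was Hoxc12 and Hoxc13 in both comparisons, which share their 2i ESC libraries.

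The 2 MEF libraries differed from each other in a direction that went with position, and the largest ratios between them were at posterior members. Among the members at 1 RPKM or more in at least 1 of them, MEF 2 was above MEF 4 in 9 of 12 posterior members. MEF 4 was above MEF 2 in 6 of 7 anterior and 7 of 10 central members. The same count was not made over all genes. Hoxa11, a limb gene of the forearm segment, read 4.12 RPKM in MEF 2 and 0.700 in MEF 4. Hoxd13, a gene of the digits and genital region, read 2.38 and 0 RPKM, Hoxa13 0.860 and 0.0690 RPKM, and Hoxc11 2.32 and 0.386 RPKM. Hoxc8 and Hoxb9 went the other way. One library of each kind allows no test between the 2 cultures.

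No member was called between the 2i MEFs and the MEFs (limma, 29 tested). An unadjusted p under 0.05 was found for 7, and 0.454% of all genes were called in either direction. Of these calls over all genes 27.9% were higher in 2i MEFs, or 47.3% after quantile normalization. The 2i MEF value lay below both MEF values in 8 of 9 Hoxc members and above both in 6 of 11 Hoxa members. In Hoxb 3 members lay above both and 3 below both, and in Hoxd 3 above and 1 below. The share of all genes in either position was not counted, and genes of 1 library are not replicates, so these counts are descriptions. Hoxa3 showed the largest difference, at 4.01 RPKM in 2i MEFs against 1.21 and 0.466 RPKM in MEFs (1.48 ± 0.281, adjusted p = 0.083). Hoxa2, at 2.75 RPKM, and Hoxa4, at 2.26 RPKM, also lay above both MEFs (0.875 and 0.541, and 0.542 and 0.673 RPKM) but did not pass the filter on low values. Hoxa5 read 5.13 RPKM against 3.00 and 1.59 RPKM (0.93 ± 0.290, adjusted p = 0.26). In the Hoxc cluster Hoxc8 differed by -1.15 ± 0.375, Hoxc6 by -1.10 ± 0.319, Hoxc13 by -1.04 ± 0.365 and Hoxc5 by -0.99 ± 0.372, with adjusted p from 0.23 to 0.36. Hoxc5 read 4.93 RPKM in 2i MEFs and 9.42 and 12.3 RPKM in MEFs. Hoxc13 read 0.0270 RPKM in 2i MEFs against 1.14 and 1.09 RPKM in MEFs. With 1 2i MEF library, the difference between these cultures cannot be told apart from a difference of that library. The 16 fibroblast genes summed to 25116 RPKM in it and to between 10873 and 12712 RPKM in the MEFs, and their part in the Hox values was not tested.

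**Figure D2:**
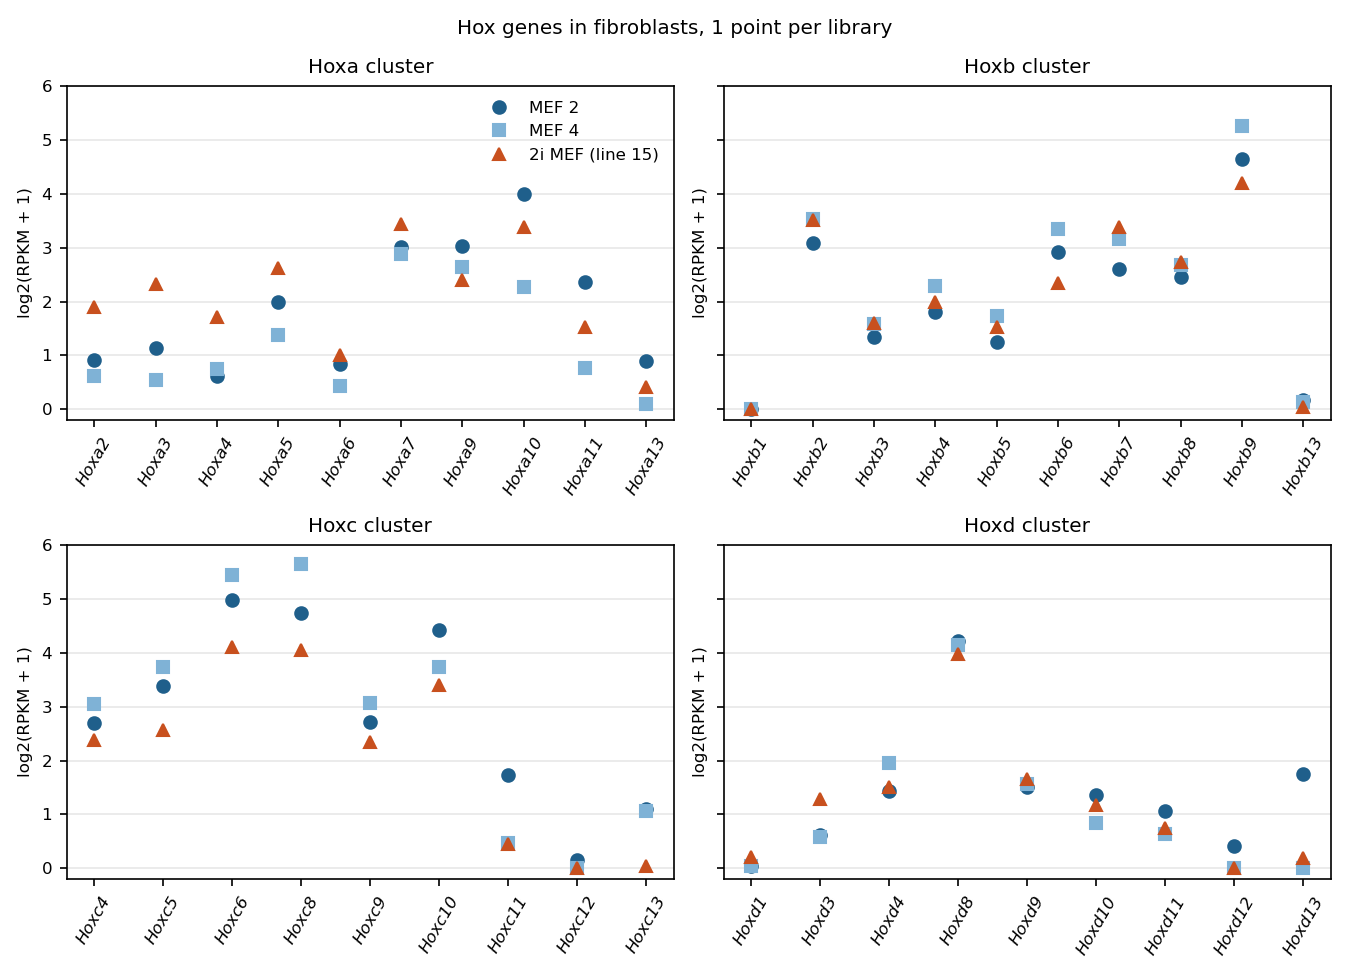
Level of 38 members as log2(RPKM + 1) in MEF 2, MEF 4 and the 2i MEFs, 1 point per library, in panels by cluster with genes in paralog order. In the Hoxc panel the 2i MEF point lies under both MEF points for 8 of 9 genes, and MEF 2 and MEF 4 part at Hoxa10 to Hoxa13, Hoxc11 and Hoxd13. The same ordering was not counted over all genes.

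Hox partners and related genes moved with cell type in a mixed way. Of 9 cofactors, the TALE homeodomain proteins that bind DNA together with Hox proteins, all were tested. In MEFs 4 were called higher than in 2i ESC and 2 lower, beside 29.9% higher and 41.2% lower over all genes tested. Their median difference was 0.06 against -0.23 over all genes. Meis1 (3.13 ± 0.232) and Meis3 (2.75 ± 0.210) were higher and Pbx4 (-1.42 ± 0.204) was lower. Among 13 Cdx and retinoid genes, the factors and signals that switch Hox genes on in the embryo, 9 were tested. Of these 5 were called higher and 1 lower (median 0.895). The retinoic acid binding proteins Crabp1 (4.63 ± 0.246) and Crabp2 (3.25 ± 0.431) and the receptor Rarg (1.68 ± 0.255) were among the higher ones, and Cdx1 (-2.87 ± 0.358) was lower. Among 21 Polycomb and Trithorax genes, all of them tested, 14 were called lower in MEFs and 3 higher (median -1.50). The 4 with the largest differences were Cbx7 (-5.49 ± 0.159), Jarid2 (-3.75 ± 0.197), Mtf2 (-3.48 ± 0.162) and Phc1 (-3.35 ± 0.208), all of them components of Polycomb complexes. Of 24 limb and trunk position genes 20 were tested, 15 were called higher and 2 lower (median 2.075). The largest differences were at Prrx1 (7.30 ± 0.234), Twist2 (6.52 ± 0.186), Emx2 (5.04 ± 0.164) and Prrx2 (4.99 ± 0.228).

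Of the 32 nearest genes outside the clusters, 28 were tested, 5 were called higher in MEFs than in 2i ESC and 16 lower, beside 29.9% higher and 41.2% lower over all genes tested. Their median difference was -0.75. Evx1 and Evx2, homeobox genes next to Hoxa13 and Hoxd13, read at most 0.547 and 0.0363 RPKM in any library. Cbx1, beyond the anterior end of Hoxb, read 31.3 and 23.1 RPKM in MEFs and 140 to 158 RPKM in 2i ESCs (-2.44 ± 0.149, adjusted p = 3.5e-06). The 3 other rows inside the clusters stayed under 1 RPKM in all 26 libraries.

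Within ESCs the Hox genes with the highest mean level in 2i were Hoxc12, Hoxc13 and Hoxc4 in both crosses. They are a posterior pair and the most anterior member of the Hoxc cluster. The 3 genes made up between 35.1% and 83.6% of the summed Hox level in the 16 ESC libraries in 2i, t2i and a2i of both crosses, between 5.17% and 9.90% in B6-cross serum ESCs, 26.2% and 34.8% in MSM-cross S lines 8 and 12, 27.5% in the 2i-S culture, and between 2.43% and 3.27% in fibroblasts. Hoxc13, a regulator of hair and nail keratin genes, read 6.62, 6.22, 5.65 and 5.35 RPKM in the 4 MSM-cross 2i lines (15, 2, 20 and 23) and 6.76, 6.09, 5.13 and 4.89 RPKM in the 4 B6-cross 2i lines (c3, c4, c2 and c6). The 8 lines thus lay between 4.886 and 6.755 RPKM in both crosses and sexes. Hoxc12, the gene next to Hoxc13, read 3.05, 6.92, 3.50 and 5.04 RPKM in the MSM-cross lines and 2.47, 3.54, 2.91 and 2.77 RPKM in the B6-cross lines. Hoxc4, a paralog of the neck region, read 4.47, 2.18, 1.43 and 1.40 RPKM and 2.19, 2.49, 2.46 and 1.93 RPKM. Single XX lines departed from the order of the means. In c3 Hoxa10 (2.71 RPKM) stood above Hoxc12 and Hoxc4, and in line 2 Hoxd9 (2.55 RPKM) stood above Hoxc4. Neither Hoxc12 nor Hoxc13 shares its locus with another member.

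In the MSM cross all 3 were lower in serum. Hoxc12 read 0.184 and 1.02 RPKM in S lines 8 and 12, Hoxc13 1.28 and 3.39 RPKM, and Hoxc4 0.0855 and 0.0798 RPKM. Each S value lay below every 2i value of the same gene. The S minus 2i differences were -1.81 ± 0.319 for Hoxc12 (adjusted p = 0.0088), -1.55 ± 0.281 for Hoxc4 (0.0098) and -1.13 ± 0.258 for Hoxc13 (0.023). They were the 3 members called lower, 10.3% of the 29 tested, which is close to the 8.36% of all genes tested. None was called higher. Without S line 8 no member was called, and the differences were -1.37 for Hoxc12 (adjusted p = 0.10), -1.16 for Hoxc4 (0.11) and -0.565 for Hoxc13 (0.18). That fit holds S line 12 as its only S library and assumes that it varies like the other groups. The 2i-S culture of line 15 read 1.07 RPKM for Hoxc12, 2.47 RPKM for Hoxc13 and 0.397 RPKM for Hoxc4, each below the same line in 2i (3.05, 6.62 and 4.47 RPKM). No member was called between 2i-S and 2i with limma (1.22% of all genes were, in either direction), and 4 members had an unadjusted p under 0.05. These were Hoxc4 (-1.45 ± 0.386), Hoxc12 (-1.31 ± 0.438), Hoxc10 (-0.98 ± 0.403) and Hoxc13 (-0.91 ± 0.355).

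**Figure D3:**
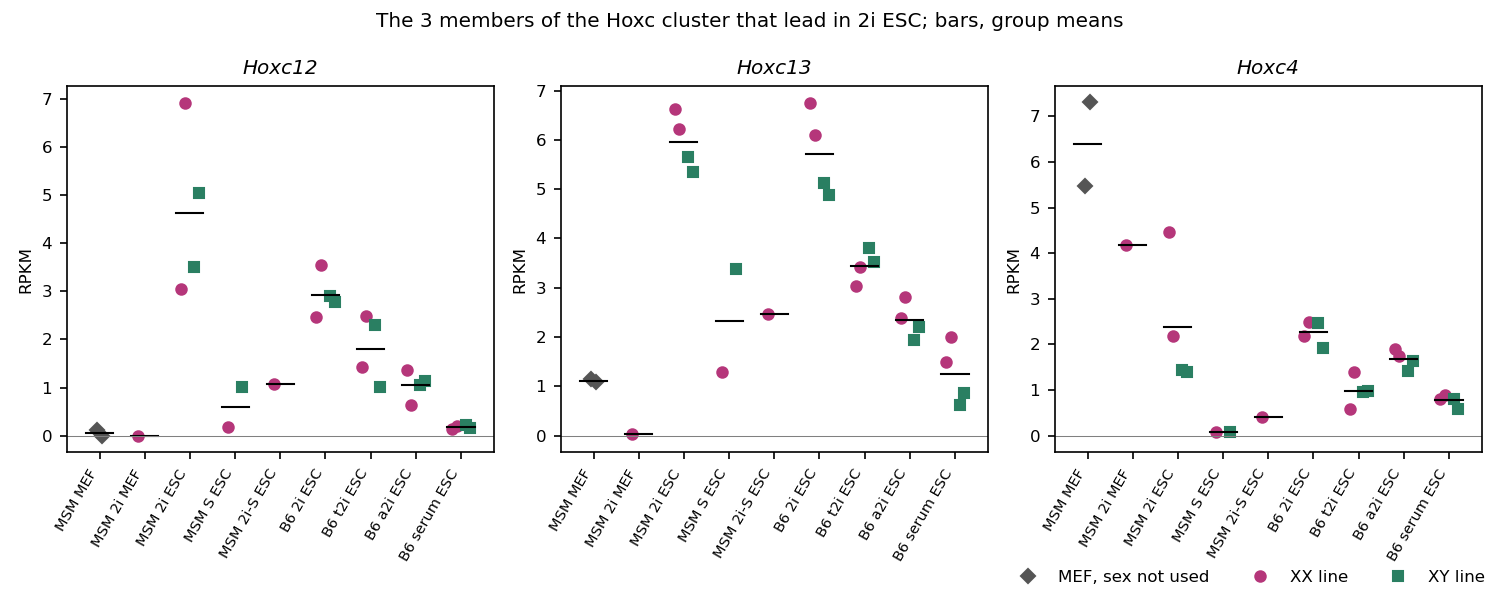
RPKM of Hoxc12, Hoxc13 and Hoxc4 in every library by culture, with XX lines as circles, XY lines as squares, MEFs as diamonds and group means as bars. Hoxc12 and Hoxc13 are highest in 2i ESCs of both crosses, lie between 2i and serum in t2i and a2i, and are lowest in fibroblasts or serum, while Hoxc4 is highest in the MEFs.

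In the B6 cross Hoxc13 read 3.04, 3.42, 3.81 and 3.52 RPKM in t2i (XX lines t1 and t3, XY lines t2 and t6), 2.38, 2.81, 1.94 and 2.2 RPKM in a2i (XX lines a18 and a4, XY lines a1 and a3), and 1.498, 1.999, 0.625 and 0.866 RPKM in serum (XX lines 17 and 46, XY lines 10 and 16). The 4 libraries of 2i lay above all of t2i, and these above all of a2i. Serum line 46 lay just above the lowest a2i line, and the other serum lines lay below all of a2i. Hoxc13 was lower in t2i than 2i by 0.59 ± 0.108 on the log2 scale (adjusted p = 0.0059), lower in a2i than 2i by 1.01 ± 0.108 (0.00011) and higher in a2i than serum by 0.60 ± 0.108 (0.00078). Hoxc12 read 1.42, 2.48, 2.30 and 1.02 RPKM in t2i, 1.37, 0.631, 1.06 and 1.14 RPKM in a2i and 0.144, 0.209, 0.213 and 0.163 RPKM in serum. Every serum library lay below every other. Hoxc12 was higher than serum in 2i by 1.72 ± 0.180 (adjusted p = 5.7e-06), in t2i by 1.21 ± 0.180 (0.00015) and in a2i by 0.78 ± 0.180 (0.0044), and lower in a2i than 2i (-0.94 ± 0.180, adjusted p = 0.0042). Hoxc4 read 0.584 to 1.40 RPKM in t2i, 1.42 to 1.899 RPKM in a2i and 0.593 to 0.892 RPKM in serum. It was higher in 2i than serum by 0.88 ± 0.132 (0.00013) and in a2i than serum by 0.60 ± 0.132 (0.0035), and lower in t2i than 2i by 0.73 ± 0.132 (0.0054).

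Hoxc4 is the only one of the 3 with an entry among the RefSeq promoters (build GRCm38.p6) used here. The 250 bases before the start of that entry, chromosome 15 from 103034145 to 103034394 on the plus strand, hold 8 CG dinucleotides. That is more than 57.0% of the 32851 RefSeq promoter entries of the same length. These bases lie inside the measured Hoxc4 locus (103018933 to 103036852) and not before it. They are shown 5′ to 3′ in lower case with each CG, the dinucleotide at which mammalian DNA is methylated, in capitals. The pair reads the same on both strands.
Hoxc4: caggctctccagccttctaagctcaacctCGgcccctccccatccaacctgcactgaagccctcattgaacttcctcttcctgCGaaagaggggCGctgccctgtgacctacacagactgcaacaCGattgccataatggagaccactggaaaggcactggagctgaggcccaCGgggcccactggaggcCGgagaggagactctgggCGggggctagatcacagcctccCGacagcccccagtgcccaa

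In the B6 cross 15 of the 39 members passed the filter. Against serum, 4 members were called higher in 2i, 26.7% of the 15 tested, beside 16.8% of all genes tested. Called lower were 7 (46.7% of the 15, beside 30.7%). Of the 39 members, tested or not, these were 10.3% and 17.9%. The 4 were Hoxc12, Hoxc13, Hoxc4 and Hoxb13 (0.56 ± 0.098, adjusted p = 0.00046). The 7 lower members were led by the genes highest in MEFs. Hoxc6 read 0.102, 0.679, 0.205 and 0 RPKM in 2i and 2.54, 3.63, 4.35 and 3.15 RPKM in serum (-1.84 ± 0.148, adjusted p = 5.4e-07). Hoxc8 read 0.382, 0.168, 0 and 0.0552 RPKM in 2i and 2.64, 2.16, 3.50 and 2.72 RPKM in serum (-1.71 ± 0.105, adjusted p = 4.3e-08). For both genes the media did not overlap. Hoxb7 (-1.22 ± 0.103), Hoxd8 (-1.20 ± 0.208), Hoxb2 (-1.0 ± 0.108), Hoxb9 (-0.64 ± 0.129) and Hoxa7 (-0.63 ± 0.102) were the others. Hoxc6, Hoxc8, Hoxb7, Hoxd8 and Hoxb2 reached 1 RPKM in no 2i, t2i or a2i library of this cross and passed the filter only through serum. Hoxc12, Hoxc4 and Hoxb13 reached it in no serum library. Calls of such members are bound up with the filter, so the counts against serum in 2i, t2i and a2i are descriptions. In t2i 2 members were called higher than in serum and 11 lower (15.3% and 28.5% of all genes), and in a2i 3 higher and 11 lower (12.4% and 25%). The media comparisons share their serum libraries. Quantile normalization moved the median of all genes by 0.17 in 2i against serum, and the share of higher calls among all calls from 35.4% to 58.4%. Hox members called then stood at 6 higher and 5 lower. The same scaling moved that share from 34.9% to 59.9% in t2i against serum and from 33.3% to 60% in a2i against serum.

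RNA of fibroblast genes was also present in the 4 serum libraries. All 16 genes of the fibroblast list were called lower in 2i than serum, and they summed to 1707 to 2319 RPKM in serum and 515 to 623 RPKM in 2i, where Postn, Lum and Dcn were listed at 0. Genes of other lists were called lower too: both neural genes tested, 3 of 4 epithelial, 2 of 3 endoderm and 6 of 9 Cdx and retinoid genes, the last with Crabp2 (-2.98 ± 0.200) and Rarg (-2.82 ± 0.233). The summed Hox level of serum lines 17, 46, 10 and 16 was 12.1%, 13.1%, 13.2% and 13.1% of the MEF mean, beside fibroblast shares of 8.54%, 16.7%, 13.1% and 19.0%. The part of fibroblast RNA and of the other lists in the Hox values was not tested. Among the 27 members at 1 RPKM or more in MEFs, the serum level as a percentage of the MEF level lay within the range of the fibroblast shares for 12, above it for 10 and below it for 5. Hoxc6 stood at 9.37%, Hoxc8 at 7.37%, Hoxb9 at 8.40% and Hoxc10 at 7.22%. Hoxc13 (112%) and Hoxd13 (39.3%) stood above the range. The limb and trunk position genes Prrx1 (-4.14 ± 0.099), Prrx2 (-3.28 ± 0.157), Twist2 (-3.25 ± 0.095) and Shox2 (-1.89 ± 0.157) were called lower in 2i than serum. Of the 24 genes on that list 13 were tested, 8 were called lower and none higher, beside the 30.7% lower of all genes. In an alternative, each library's fibroblast share of the MEF profile was subtracted and values under 0 were set to 0. Hoxc6, Hoxc8 and Hoxb9, whose serum percentages lie near the lowest share, were then set to 0 in all 4 serum libraries, so loss or reversal of their calls follows from how the values were made and says nothing about their level. Hoxc12 and Hoxc13 were above 0 in all 4 after it, and the 2i minus serum differences were 1.73 ± 0.186 and 1.73 ± 0.110. These also follow from how the values were made. Both genes are low in MEFs (at most 0.107 and 1.14 RPKM), so little was subtracted. More was taken from serum than from 2i, which cannot remove a difference that is higher in 2i.

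**Figure D4:**
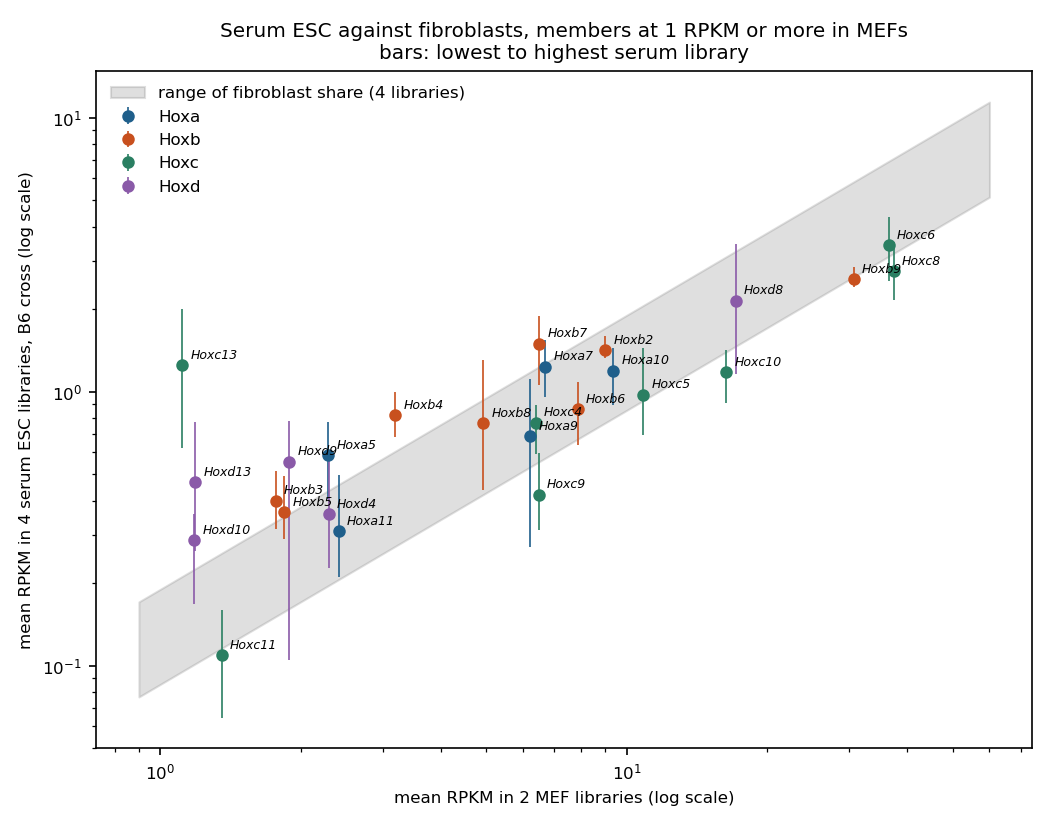
Mean RPKM of 26 of the 27 members at 1 RPKM or more in MEFs, in 2 MEF libraries (x axis, log scale) and in 4 B6-cross serum ESC libraries (y axis, log scale), with bars from the lowest to the highest serum library. The grey band marks the MEF level times the fibroblast shares of those libraries, 8.54% to 19.0%. In the band lie 12 members, 9 above it and 5 below it.

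The crosses differed in the size of the serum difference. For 6 members (18 tested) the 2i minus serum difference, negative in the B6 cross, was higher in the MSM cross, beside 9.47% of all genes tested: Hoxc6 by 1.94 ± 0.307, Hoxc8 by 1.81 ± 0.245, Hoxd8 by 1.77 ± 0.497, Hoxc5 by 1.08 ± 0.320, Hoxb7 by 0.995 ± 0.238 and Hoxb2 by 0.81 ± 0.231, with adjusted p from 0.00052 to 0.047. Of the 6, 5 are central paralogs. In this fit Hoxc6, Hoxc8, Hoxb7 and Hoxb2 reached 1 RPKM only in B6-cross serum libraries and passed the filter through them. A larger serum difference in the B6 cross is bound up with that, so the count is a description. In S lines 8 and 12 Hoxc6 read 0.138 and 0.278 RPKM and Hoxc8 0.114 and 0.138 RPKM, with fibroblast shares of 0.630% and 2.39%. Quantile normalization kept 2 of the 6 calls, moved the median of all genes by -0.19 and moved the share of higher calls among all genes from 81.8% to 57.8%. Leaving out 1 library left between 3 and 6 calls, with 3 without S line 8, 2i lines c4, c2 or c6, or serum line 16. The Hoxc12 difference from serum was called in neither direction between the crosses (0.09 ± 0.347, adjusted p = 0.90).

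XX and XY lines differed in 2i. Both XX lines read above both XY lines in 24 of the 39 members in the B6 cross (61.5%, beside 20.6% of all genes in the table) and in 23 of the 39 in the MSM cross (59%, beside 15.8%). In neither cross did a member show both XX lines below both XY lines, beside 22.4% and 19.3% of all genes. The summed Hox level was 32.5 and 28.7 RPKM in B6-cross XX lines c3 and c4 and 13.5 and 12.3 RPKM in XY lines c2 and c6. In the MSM cross it was 34.2 and 32.5 RPKM in XX lines 15 and 2 and 16.4 and 17.1 RPKM in XY lines 20 and 23. This comparison was chosen after the values had been seen.

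Of the 39 members 7 were called higher in XX than XY 2i lines of the B6 cross (17.9% of the 39 and 46.7% of the 15 tested, beside 11.9% of all genes tested) and none lower. Hoxa10, a posterior gene of the uterus and hindlimb, read 2.71 and 1.903 RPKM in XX lines c3 and c4 and 0 in both XY lines (1.71 ± 0.167, adjusted p = 1.9e-05). Hoxb13, known from the prostate and tail end, read 2.04 and 1.78 RPKM against 0.241 and 0.184 RPKM (1.26 ± 0.138, adjusted p = 4.6e-05). Hoxd9 read 1.46 and 1.34 RPKM against 0.0714 and 0.0476 RPKM (1.18 ± 0.183, adjusted p = 0.00056). Hoxc10 differed by 0.97 ± 0.159, Hoxa7 by 0.94 ± 0.145 and Hoxb9 by 0.66 ± 0.183, with adjusted p from 0.00052 to 0.019. These 6 come from every cluster, and 5 of them are posterior. Hoxb13 and Hoxd9 reached 1 RPKM in no B6-cross library but XX 2i lines c3 and c4, and so passed the filter only through them. Their calls are bound up with that, and the count is a description. In all 6 the XX and XY lines did not overlap, which adds no support, since the calls were made on the same libraries. Without XX line c3, 4 members were called. The fibroblast share was at most 0.0451% in these 4 lines, and the fibroblast genes Postn, Lum and Dcn were listed at 0 in each. Of the 16 fibroblast genes 2 were called higher in XX lines and none lower, with a median difference of 0.006. Of the other lists, 2 of 3 cartilage genes tested, 3 of 7 pluripotency genes and 1 of 2 neural genes were called higher in XX lines. Lower were 3 of 4 epithelial, both blood and 1 of 2 early mesoderm genes, beside 13.2% of all genes tested. The part of the fibroblast genes and of these lists in the Hox values was not tested. The 3 genes that lead in 2i showed no such call: Hoxc12 differed by 0.05 ± 0.254, Hoxc4 by 0.07 ± 0.187 and Hoxc13 by 0.30 ± 0.153.

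In the MSM cross 1 member, Hoxd9, was called higher in XX than XY 2i lines (2.12% of all genes were), at 1.79 and 2.55 RPKM against 0.403 and 0.118 RPKM (1.33 ± 0.214, adjusted p = 0.031). An unadjusted p under 0.05 was found for 4. The fit had 3 residual degrees of freedom, and the call was lost when either MEF library or any of the 4 2i lines was left out. Hoxc10 read 1.47 and 2.11 RPKM against 0.190 and 0.490 RPKM (1.06 ± 0.289, adjusted p = 0.11). Hoxa10 read 1.34 and 0.634 RPKM against 0.168 and 0.180 RPKM. A term for XX over all MSM-cross ESC libraries called no member with limma (2 had an unadjusted p under 0.05), beside 3.44% of all genes in either direction.

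**Figure D5:**
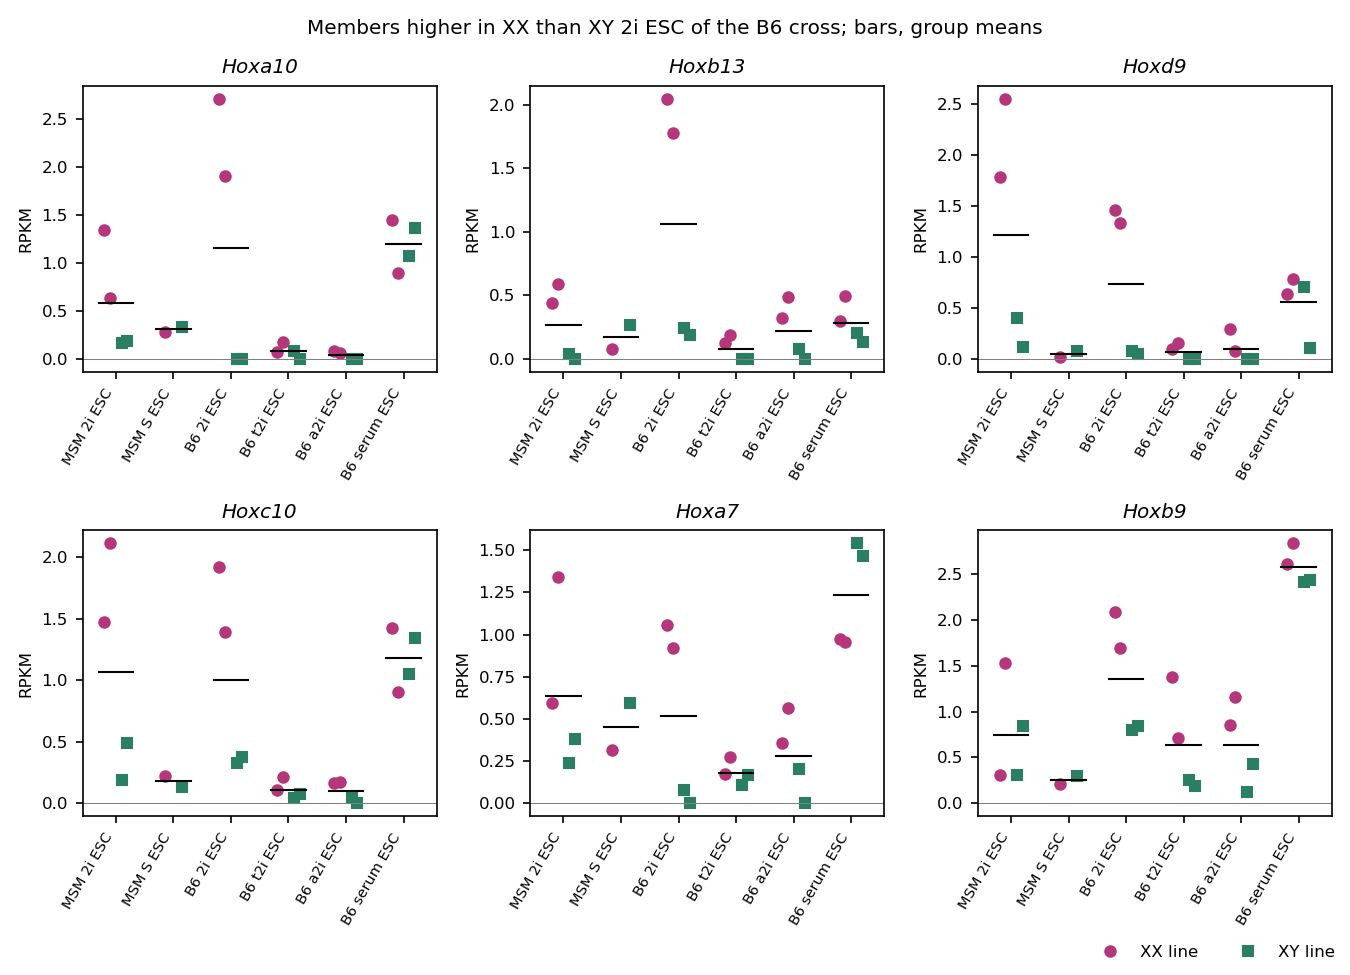
RPKM of 6 of the members called higher in XX than XY 2i lines of the B6 cross, by culture, with XX lines as circles, XY lines as squares and group means as bars. In B6-cross 2i both circles lie above both squares in every panel, and in t2i all points of Hoxa10, Hoxd9 and Hoxc10 lie near 0.

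Fewer members were called between XX and XY lines in the other media. In t2i 1 member was called higher in XX (Hoxb9, 0.73 ± 0.183, beside 11% of all genes), in a2i 2 (Hoxb9, 0.66 ± 0.183, and Hoxb13, 0.43 ± 0.138, beside 16.8%), and in serum 1 (Hoxc13, 0.65 ± 0.153, beside 5.51%). Leaving out 1 library left 0 or 1 call in t2i (0 without t1, t2 or t6) and in serum (0 without 46, 10 or 16), and 0 to 3 in a2i (0 without a4). No member was called lower in XX in any of them. Tested directly, the XX minus XY difference of Hoxa10 was greater in 2i than in t2i by 1.60 ± 0.236 (adjusted p = 0.0078), than in a2i by 1.61 ± 0.236 (0.0045) and than in serum by 1.75 ± 0.236 (0.0012). That of Hoxb13 was greater by 1.06 ± 0.196 (0.022), 0.83 ± 0.196 (0.033) and 1.01 ± 0.196 (0.0082). Hoxb13 passed the filter only through XX 2i lines c3 and c4, so its greater difference in 2i is bound up with the filter. Against serum, Hoxa7 (1.29 ± 0.204, adjusted p = 0.0029) and Hoxc10 (0.995 ± 0.225, 0.018) also passed. Over all genes, 0.373% had a greater XX difference in 2i than t2i, 1.62% in 2i than a2i and 3.15% in 2i than serum. The 3 tests share the 2i lines, and without line c3 the calls were 1, 1 and 2. Without any one of the other 2i lines the first 2 tests called 1 member each. Quantile normalization moved the share of higher calls among all genes from 59.4% to 49.2% for XX against XY in a2i, from 75.6% to 62.1% in serum and from 32.9% to 44.9% for 2i minus a2i.

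Of the 15 members tested in the B6 cross 7 are posterior, 5 central and 3 anterior. The central members tested include Hoxc6, Hoxc8 and Hoxb7, which read under 1 RPKM in every B6-cross 2i library. In t2i 7 members were called lower than in 2i (17.9% of the 39 and 46.7% of the 15, beside 3.89% of all genes tested): Hoxb13 (-0.81 ± 0.098), Hoxc10 (-0.77 ± 0.113), Hoxa10 (-0.75 ± 0.118), Hoxc4 (-0.73 ± 0.132), Hoxc13 (-0.59 ± 0.108), Hoxd9 (-0.59 ± 0.130) and Hoxb9 (-0.55 ± 0.129). In a2i 7 were called lower (beside 5.85%): Hoxc13 (-1.01 ± 0.108), Hoxc12 (-0.94 ± 0.180), Hoxa10 (-0.81 ± 0.118), Hoxc10 (-0.79 ± 0.113), Hoxb13 (-0.64 ± 0.098), Hoxd9 (-0.55 ± 0.130) and Hoxb9 (-0.53 ± 0.129). All 7 in a2i and 6 of the 7 in t2i are posterior. Hoxb13 and Hoxd9 passed the filter only through XX 2i lines c3 and c4, so lower values of these in t2i and a2i are bound up with it. The central members Hoxc6, Hoxc8, Hoxb7 and Hoxd8 passed only through serum and had little room to be lower than in 2i. The counts and their split by position are therefore descriptions. No member was called higher than 2i in t2i or a2i. In each medium 5 of the 7 are among the members called higher in XX 2i lines. Hoxa10 in t2i and a2i read at most 0.179 RPKM, and it was at 0 in the XY 2i lines, so only XX lines held a higher level in 2i. Without XX line c3, 4 members were called in each comparison. Both comparisons share the 2i libraries.

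Promoter entries were found for 22 of the 39 members, with 24 promoters. Of the members higher in XX 2i lines, Hoxa10, Hoxa7 and Hoxd9 have one. Their 250 upstream bases are shown, 5′ to 3′ with each CG in capitals, because these genes moved together in XX 2i lines. They lie on chromosome 6 from 52234940 to 52235189 and from 52240855 to 52241104 (Hoxa10, minus strand, 2 starts), chromosome 6 from 52218574 to 52218823 (Hoxa7, minus strand) and chromosome 2 from 74697513 to 74697762 (Hoxd9, plus strand), in GRCm38.p6. The windows of Hoxa7 and of the inner Hoxa10 start lie inside the measured loci of these genes.
Hoxa10 inner start: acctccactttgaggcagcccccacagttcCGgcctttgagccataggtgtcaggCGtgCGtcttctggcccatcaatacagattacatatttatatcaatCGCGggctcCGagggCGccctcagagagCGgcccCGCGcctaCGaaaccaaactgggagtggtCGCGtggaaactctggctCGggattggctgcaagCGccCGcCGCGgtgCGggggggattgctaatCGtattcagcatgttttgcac
Hoxa10 outer start: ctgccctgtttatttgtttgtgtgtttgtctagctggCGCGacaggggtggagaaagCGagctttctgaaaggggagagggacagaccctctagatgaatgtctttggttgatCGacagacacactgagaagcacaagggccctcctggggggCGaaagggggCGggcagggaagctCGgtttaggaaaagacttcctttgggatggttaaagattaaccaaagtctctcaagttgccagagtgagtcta
Hoxa7: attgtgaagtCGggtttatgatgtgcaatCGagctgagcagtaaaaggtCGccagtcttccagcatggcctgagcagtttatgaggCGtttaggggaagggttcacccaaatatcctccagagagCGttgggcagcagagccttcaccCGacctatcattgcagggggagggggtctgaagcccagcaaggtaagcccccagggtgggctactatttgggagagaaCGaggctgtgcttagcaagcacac
Hoxd9: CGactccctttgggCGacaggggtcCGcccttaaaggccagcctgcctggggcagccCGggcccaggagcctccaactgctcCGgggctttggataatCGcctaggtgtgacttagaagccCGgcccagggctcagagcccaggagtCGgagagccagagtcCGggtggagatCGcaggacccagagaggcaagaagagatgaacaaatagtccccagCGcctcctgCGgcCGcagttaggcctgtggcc

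The windows hold 20, 7, 7 and 13 CG pairs, more than 82.1%, 53.7%, 53.7% and 68.5% of all promoter entries. At least 10 CG pairs were present in 15 of the 24 Hox promoters and in 37.8% of all entries. The Hox promoters ran from 2 (Hoxd11, 1 of its 2 starts) to 35 (Hoxa13), with a median of 12.5 against 6 over all entries. The windows of Hoxa10, Hoxa7 and Hoxd9 are among these 24.

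Other members were low in the ESC libraries. Hoxd13 was near 1 RPKM in the MSM-cross ESCs (0.634 to 1.36 RPKM) and lower in the B6-cross ones (0.112 to 0.867 RPKM). Hoxb3, Hoxb5 and Hoxd3 were at most 0.514, 0.494 and 0.141 RPKM in any ESC library. The number of members listed at 0 ran from 17 to 27 in B6-cross XY 2i lines, t2i lines and a2i lines, was 8 and 9 in the XX 2i lines and 1 in each serum line.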

How the data were processed

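RNA was measured in 26 of the 88 samples of the series, as stranded mRNA libraries per the labels' protocols, and the 62 bisulfite samples were not used here. The authors deposited 1 table of RPKM values per gene. Bowtie2 2.2.5, TopHat2 2.1.0, Cufflinks 2.2.1 and cutadapt 1.9.1 and the mm10 build are named per the submitters' processing notes, and which of them made the RNA values, and whether counting used strand, is not stated there. Libraries were grouped by the labels.

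The members, lists and comparisons were chosen with earlier results of these data known. RPKM values were analysed as log2(RPKM + 1), without scaling between libraries. A gene was tested where 2 or more libraries of the fit reached 1 RPKM, using limma 3.58.1 (R 4.3.3), with Benjamini-Hochberg adjustment over all genes tested and calls under 0.05. ± is the standard error. The MSM-cross fit held 10 libraries with 1 mean per culture and a term for XX among ESCs (4 residual degrees of freedom). The B6-cross fit held 16 libraries with a mean per medium and sex (8), and medium differences average XX and XY. The fit across crosses held 14 libraries (8). Comparisons of XX with XY, their differences between media and the separate XX and XY means of MSM-cross 2i lines (3 residual degrees of freedom) were added after the values were seen. The procedure was tested on simulated data.

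Described in full were the 3 highest members per cluster in MEFs, the 8 differing most between 2i MEF and MEF, members with a median of 1 RPKM or more in an ESC group, and up to 6 called members per medium comparison. From each other list up to 4 genes with the largest difference were named. Alternatives were a pseudocount of 0.1, no filter, quantile normalization, subtraction of the fibroblast share times the MEF mean from ESC libraries with values under 0 set to 0, no sex term, only the media compared, and leaving out each library. Some items, in the text and the figures, are not reported here. Promoters were read from RefSeq (GRCm38.p6).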

Additional observations from a re-analysis of the deposited data

Results flagged for a closer look

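Differences between effects that were themselves tested with limma passed the threshold for the following members, and none of the causes was tested. The XX minus XY difference in B6-cross ESCs was greater in 2i than in t2i by 1.597 for Hoxa10 and 1.057 for Hoxb13. It was greater in 2i than in a2i by 1.613 for Hoxa10 and 0.834 for Hoxb13. It was greater in 2i than in serum by 1.754 for Hoxa10, 1.288 for Hoxa7, 1.012 for Hoxb13 and 0.995 for Hoxc10. Hoxb13 passed the filter on low values only through XX 2i lines c3 and c4.

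The 2i minus serum difference was higher in the MSM cross than in the B6 cross by 1.942 for Hoxc6, 1.809 for Hoxc8, 1.769 for Hoxd8, 1.077 for Hoxc5, 0.995 for Hoxb7 and 0.813 for Hoxb2. Hoxc6, Hoxc8, Hoxb7 and Hoxb2 passed the filter on low values only through B6-cross serum libraries. Fibroblast shares stood at 8.54% to 19.0% in the B6-cross serum libraries and 0.630% and 2.39% in the S libraries.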

How the results depend on the processing

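Without the filter on low values the members called were 2 for 2i MEF against MEF (Hoxa2 and Hoxd3), 29 for 2i against serum, 35 for t2i against serum, 34 for a2i against serum, 12 for t2i against 2i, 14 for XX against XY in 2i and 5 in serum, 4, 6 and 10 for the difference of the XX effect between 2i and t2i, a2i and serum, and 10 between crosses. A pseudocount of 0.1 gave 2 for XX against XY in t2i, 4 in a2i, and 1 each for the difference of the XX effect from t2i and a2i. Quantile normalization gave 0 for XX against XY in a2i and 2 between crosses. Subtracting the fibroblast share gave 7, 4 and 4 members for 2i, t2i and a2i against serum, 1 for XX against XY in a2i, 1 each for the difference of the XX effect from t2i and a2i, and 0 between crosses. It turned Hoxb9 against serum to 0.638 in t2i and 0.655 in a2i. The results against serum and between crosses follow, at least in part, from its construction: values under 0 are set to 0, Hoxb9, Hoxc6 and Hoxc8 are at 0 in all 4 serum libraries, and 9 of the 15 members are still tested.

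Leaving out 1 library gave 22 to 26 members for MEF against 2i ESC, 22 to 25 for 2i MEF against 2i ESC, 0 for 2i MEF against MEF and for 2i-S, 0 to 4 for S against 2i, 10 to 12, 12 to 14 and 13 to 14 for 2i, t2i and a2i against serum, and 4 to 7 for t2i and for a2i against 2i. The ranges for XX against XY were 4 to 8 in 2i, 0 to 1 in t2i, 0 to 3 in a2i, 0 to 1 in serum and 0 to 1 for both MSM-cross tests, and 1 to 3, 1 to 3 and 2 to 5 for the difference of the XX effect from t2i, a2i and serum, and 3 to 6 between crosses. Hoxc4 in t2i against serum ranged from 0 without t2i line t3 to 0.30 without t1. The cause of these changes was not tested. Of the values of single members under an alternative, 1751 kept direction and side of the threshold, 100 lost the call, 8 gained one and 3 reversed.

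No paired analysis was possible because the groups compared share fewer than 2 line numbers that name the same line. The number of reads behind each value is not known, and groups of 1, 2 or 4 libraries limit precision.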
